A study of Mus musculus with 14 samples.

Results

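Of the circadian clock, 10 genes were followed in the mouse duodenal mucosa during the first hours of a meal: Per1, Per2, Per3, Cry1, Cry2, Arntl, Nr1d1, Nr1d2, Dbp and Tef. They were taken by symbol, through every probe set that the platform annotation gives to 1 of these genes alone. That makes 10 genes and 22 probe sets, out of 18193 genes named in this way and 45037 probe sets tested. The 22 probe sets comprised 6 for Per3, 3 each for Per2 and Tef, 2 each for Arntl, Nr1d2 and Dbp, and 1 each for Per1, Cry1, Cry2 and Nr1d1.

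The study asked how a low-fat (LF) or high-fat (HF) meal alters transcripts of the duodenal mucosa relative to the fasting condition. Male C57BL6 mice, bought at 12 wk of age, were acclimated on LF diet (10% calories from fat) and fasted for 12 h. The Fasting group was killed without a meal. The other groups had LF or HF diet (60% calories from fat) ad libitum up to the kill. They were killed 30 min (LF30min, HF30min), 1 h (LF1h, HF1h) or 3 h (LF3h, HF3h) after the meal began. Below, a time after a meal counts from its start. For each group, scraped mucosa of 20 mice gave 1 RNA pool, hybridised to 2 Affymetrix MOE 430 v2.0 arrays, 14 in all. By the study's methods, mice of every group were killed within the same morning hours, in random order across groups, and the start of the fast and of the meal was shifted to allow this. The fed groups had therefore begun their fast at an earlier clock time than the Fasting group. Time since the start of the meal and clock time of the fast cannot be told apart. Both arrays of a pool came from the same RNA (technical replicates in the labels), and the errors and p-values below therefore cover array spread only, with no spread between mice.

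In the clock, ARNTL (BMAL1) pairs with CLOCK or NPAS2 and activates genes through E-boxes, among them Per, Cry, Nr1d1, Nr1d2, Dbp and Tef. PER and CRY proteins return to the nucleus and repress that activation, NR1D1 and NR1D2 (REV-ERB alpha and beta) repress Arntl, and DBP and TEF activate genes through D-boxes. The intestine carries such a clock, and meal timing is known to reset clocks of digestive organs, with Per2 among the genes that respond to feeding signals.

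The 14 arrays had medians between 4.47 and 4.55 on the log2 scale, and correlation within a pool was 0.9958 to 0.9971. Array 2 of LF30min correlated best with array 2 of HF30min, and the other 13 arrays with the partner from their own pool. All 9 enterocyte markers measured lay above 6 in every pool, with a mean level of 11.98 to 12.13 over the 14 arrays. Markers of neighbouring tissue moved with the groups. The mean of 5 stomach and Brunner gland markers was 7.08 to 7.17 in Fasting, 6.77 to 6.81 at LF3h and 8.62 to 8.67 at HF3h, with 9.84 at LF30min and 10.16 to 10.22 at HF30min. The mean of 6 acinar markers was 11.4 to 11.43 in Fasting, 11.22 at LF3h and 12 to 12.07 at HF3h, and that of 4 islet markers was 6.64 to 6.65, 5.76 to 5.83 and 7.3. Against Fasting, these marker means thus lay on opposite sides in the 3 h pools, while from 30 min to 3 h the stomach markers fell after both meals (5 of 5 each, medians -3.38 after LF and -1.64 after HF). Of 3 adipocyte markers, 2 were higher at HF3h than in Fasting (median 0.59) and than at LF3h (median 0.66). Of 6 smooth muscle markers, 3 fell from 30 min to 3 h after LF and 2 after HF. In such a bulk sample, fewer cells of a type and less RNA per cell cannot be told apart.

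At 3 h, Per2 and Cry1 rose and Nr1d2 fell after both meals, while Per1 was called lower after the LF meal and Cry2 after the HF meal. Per1 at HF3h (-0.41) and Cry2 at LF3h (-0.35) differed in the same direction without a call. Neither gene was called between the meals at 3 h. Per2 moved most, by 3.31-fold after LF and 2.99-fold after HF, against 1.4-fold to 1.73-fold for the other calls. Arntl, Nr1d1, Dbp, Tef and Per3 were called in no comparison with the fasting condition on the probe set with the highest mean, which stood for each gene. At LF3h, 4 of 10 genes were called (2 higher, 2 lower), where 5.41% of all genes were called (3.13% higher, 2.28% lower). At HF3h it was again 4 of 10 (2 higher, 2 lower), with 6.67% of all genes called (2.97% higher, 3.7% lower). A gene was called at an adjusted p under 0.05 in limma, with the p-values adjusted over all probe sets of a comparison. The median log2 difference of the 10 genes was -0.15 at LF3h and -0.24 at HF3h, and that of all genes -0.024 and -0.003. Both comparisons use the same 2 fasting arrays. The 10 genes were chosen with earlier results of these data known, so their counts beside the shares do not test them as a set.

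**Figure D1:**
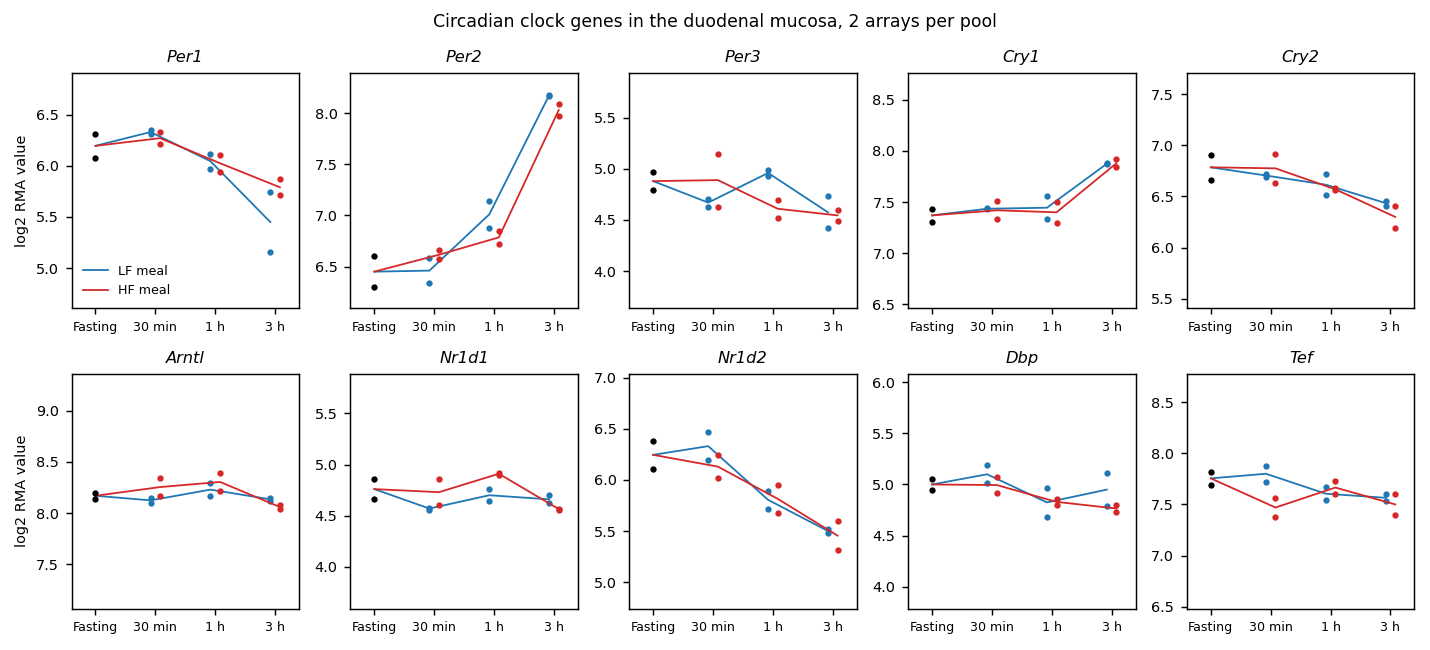
Log2 RMA value of the 10 clock genes (vertical axis, the same span in every panel) in the 7 pools (horizontal axis, in order of time and not to scale), with a point for each array and lines through the pool means. Per2 lay at 7.97 to 8.18 in the 3 h pools and at 6.3 to 6.6 in Fasting, and Nr1d2 at 5.31 to 5.6 against 6.11 to 6.38.

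The activator Arntl stayed level on its brighter probe set only. Its brighter probe set, 1425099_a_at, read 8.14 and 8.20 in Fasting, 8.12 and 8.15 at LF3h, and 8.04 and 8.08 at HF3h. The 3 h values lay within or close beneath the fasting ones. The log2 difference from Fasting was -0.04 (95% interval -0.24 to 0.16) at LF3h and -0.11 (-0.31 to 0.09) at HF3h, and the whole range of the 7 pool means was 0.25, a range reached by 64.5% of genes. The second probe set, 1457740_at, differed from this. It read 7.42 and 7.44 in Fasting, 7.15 and 7.18 at LF3h, and 6.93 and 7.07 at HF3h, so that all 4 arrays at 3 h lay below both fasting arrays. It fell by 0.43 at HF3h (adjusted p = 0.012 in limma), and the mean of both Arntl probe sets fell by 0.27 there (adjusted p = 0.033). At HF3h both probe sets of Arntl thus lay below Fasting, and only 1457740_at was called. Their signs were opposite at LF1h (0.06 and -0.2), HF30min (0.08 and -0.21) and HF1h (0.14 and -0.27), the brighter probe set given first.

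Per2 encodes a repressor of the ARNTL complex and was the clock gene that changed most. With probe set 1417602_at, Fasting read 6.30 and 6.60, LF30min 6.34 and 6.58, LF1h 7.14 and 6.88, and LF3h 8.17 and 8.18. The LF pools left the fasting range at 1 h and lay far above it at 3 h. HF30min read 6.57 and 6.66, HF1h 6.72 and 6.85, and HF3h 7.97 and 8.09. The HF pools followed the same course with a smaller step at 1 h. The log2 difference from Fasting was 1.73 ± 0.12 (SE) at LF3h (95% interval 1.46 to 1.99, adjusted p = 2.7e-06) and 1.58 ± 0.12 at HF3h (1.32 to 1.84, adjusted p = 3.3e-06). On the brightest probe sets, Per2 was the only one of the 10 to change 2-fold or more. Of all genes, 0.231% did so at LF3h and 0.484% at HF3h. The other probe sets of Per2 stayed under 2-fold at 3 h. Probe set 1417603_at rose 1.66-fold after LF and 1.49-fold after HF, and 1457350_at 1.74-fold and 1.8-fold. The range of pool means of 1417602_at, 1.73, ranked 58 among 18193 genes.

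Against the 30 min pool of the same meal, which leaves the fasting arrays out of the difference, Per2 rose on probe set 1417602_at. The rise was 1.72 after LF (adjusted p = 3.1e-06) and 1.42 after HF (adjusted p = 8.3e-06). Changes of 2-fold or more were called for 0.225% of all genes in the first of these comparisons and 0.577% in the other, and for Per2 alone among the 10. None of these calls at 3 h was lost when any array was left out, and the difference from Fasting then lay between 1.58 and 1.87 at LF3h and between 1.43 and 1.73 at HF3h. Without array 2 of LF30min, the array closest to another pool, the rise from LF30min was 1.84.

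The rise at LF1h was 0.56, or 1.47-fold (adjusted p = 0.036), and was the only call among the 10 genes at that time, where 1.54% of all genes were called. It was lost when array 1 of Fasting, array 1 of LF1h, or either array of LF3h or HF30min was left out, with differences of 0.41 to 0.71 and an adjusted p of up to 0.37. At HF1h the difference was 0.33 (adjusted p = 0.28). At 30 min it was 0.01 after LF and 0.16 after HF.

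The other 2 probe sets of Per2 gave the same direction at 3 h. Probe set 1417603_at read 5.34 and 5.45 in Fasting, 6.10 and 6.14 at LF3h, and 6.09 and 5.86 at HF3h, and rose by 0.73 (adjusted p = 0.00056) and 0.58 (adjusted p = 0.002). Probe set 1457350_at read 5.92 and 6.12 in Fasting, 7.12 and 6.88 at LF1h, 6.70 and 6.93 at LF3h, 6.57 and 6.80 at HF1h, and 6.91 and 6.83 at HF3h. It was already higher at 1 h, by 0.98 after LF (adjusted p = 0.00047) and 0.67 after HF (adjusted p = 0.016), and at 3 h by 0.80 (adjusted p = 0.0019) and 0.85 (adjusted p = 0.00078). So the 3 h rise over Fasting was called with 3 of 3 probe sets, its size differed among them, and the 1 h rise depended on the probe set. From 30 min to 3 h, 1417603_at rose by 0.88 after LF (adjusted p = 0.00015) and 0.9 after HF (adjusted p = 5.2e-05). Probe set 1457350_at rose by 0.65 after HF (adjusted p = 0.0053), while its difference of 0.43 after LF was not called (adjusted p = 0.072). Averaged over the 3 probe sets, Per2 rose by 1.08 in the LF3h pool (adjusted p = 7.4e-06) and by 1 in the HF3h pool (adjusted p = 7.4e-06), and it was then also called at HF1h (0.39, adjusted p = 0.034).

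**Figure D2:**
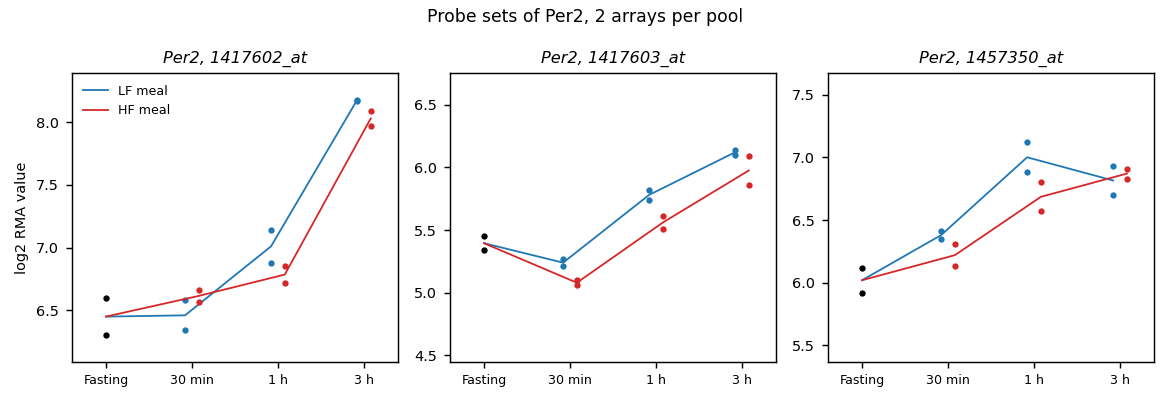
Log2 RMA value (vertical axis, the same span in each panel) of the 3 probe sets of Per2 in the 7 pools (horizontal axis, not to scale), with a point for each array and lines through pool means. In all 3 panels the 3 h arrays lie above the fasting arrays, and the step between 1 h and 3 h is large only for 1417602_at.

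Per1, the companion of Per2 in the repressor complex, went the other way. It read 6.08 and 6.31 in Fasting, 6.35 and 6.31 at LF30min, 6.12 and 5.97 at LF1h, and 5.74 and 5.16 at LF3h. After HF it read 6.21 and 6.33, 6.11 and 5.94, and 5.87 and 5.71. All 4 arrays at 3 h lay below both fasting arrays, and the 2 arrays of LF3h stood far apart. The log2 difference at LF3h was -0.75 ± 0.15 (SE), or 1.68-fold lower (95% interval -1.08 to -0.42, adjusted p = 0.012). Array 2 of LF3h carried much of it, since the difference without that array was -0.46 (adjusted p = 0.13), and without array 2 of Fasting -0.63 (adjusted p = 0.11). At HF3h the difference was -0.41 (-0.73 to -0.08) and was not called (adjusted p = 0.17). From LF30min to LF3h Per1 fell by 0.88 (adjusted p = 0.0055), with a difference of -0.59 (adjusted p = 0.056) without array 2 of LF3h.

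Per3, the third period gene, was dim with all 6 probe sets, which ranged from 3.28 to 5.15 over the arrays. Its log2 difference, on probe set 1421087_at, was -0.3 at LF3h and -0.33 at HF3h, and neither was called.

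The cryptochromes, partners of the PER proteins, split. Cry1 read 7.43 and 7.31 in Fasting, 7.88 and 7.87 at LF3h, and 7.84 and 7.92 at HF3h, and the other 8 arrays lay between 7.3 and 7.56. The arrays at 3 h stood clear of all others. Cry1 rose by 0.51 ± 0.11 (SE), or 1.42-fold, at LF3h (95% interval 0.28 to 0.73, adjusted p = 0.013) and by 0.51 at HF3h (adjusted p = 0.011). From the 30 min pools it rose by 0.44 (LF, adjusted p = 0.032) and 0.46 (HF, adjusted p = 0.018). The LF3h call was lost without either array of LF3h or of Fasting, with differences between 0.45 and 0.57 and an adjusted p of up to 0.11. The HF3h call was lost without array 2 of Fasting or array 2 of HF3h. The rise from LF30min was lost without any 1 of the 4 arrays compared (adjusted p up to 0.16), array 2 of LF30min among them (0.45, adjusted p = 0.11), and the rise from HF30min without array 1 of HF30min or either array of HF3h (up to 0.15).

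Cry2 read 6.66 and 6.91 in Fasting, 6.69 and 6.72 at LF30min, 6.51 and 6.72 at LF1h, and 6.41 and 6.46 at LF3h. After HF it read 6.63 and 6.92, 6.56 and 6.58, and 6.41 and 6.19. The 4 arrays at 3 h were below both fasting arrays. Cry2 fell by 0.49 ± 0.12 (SE), or 1.4-fold, at HF3h (95% interval -0.74 to -0.23, adjusted p = 0.03), and the difference at LF3h was -0.35 (-0.61 to -0.09, adjusted p = 0.13). The HF3h call was lost without array 2 of Fasting or of HF3h, with differences of -0.61 to -0.36. The call at LF3h was made with an intensity trend in the variance (adjusted p = 0.048) and with dim probe sets left out (adjusted p = 0.032).

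To show what these genes hold next to their starts, windows of 100 bases were read from the RefSeq promoters (GRCm38.p6, 250 bases before to 50 after a gene's start). They are given 5′ to 3′ on the gene's strand, with E-box letters in capitals: CACGTG is the E-box, bound by the ARNTL complex, and AACGTG is the E-box-like CACGTT read from the other strand. The table held 9 of the 10 genes, in 12 entries, and Per2 was not among them. The windows shown were placed to hold such letters, in Cry1, Per1 and Cry2, which were called, and in Tef, which was not. Positions count from the gene's start.
Cry1, -100 to -1, chr10:85185055-85185154, minus strand: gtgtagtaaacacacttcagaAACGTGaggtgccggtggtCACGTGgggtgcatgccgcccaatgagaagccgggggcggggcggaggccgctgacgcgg
Per1, -200 to -101, chr11:69098749-69098848, plus strand: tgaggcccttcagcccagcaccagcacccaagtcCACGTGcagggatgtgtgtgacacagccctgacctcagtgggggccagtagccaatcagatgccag
Cry2, -200 to -101, chr2:92434170-92434269, minus strand: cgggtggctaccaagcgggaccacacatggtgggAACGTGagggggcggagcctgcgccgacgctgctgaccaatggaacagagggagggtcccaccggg
Tef, -180 to -81, chr15:81802493-81802592, plus strand: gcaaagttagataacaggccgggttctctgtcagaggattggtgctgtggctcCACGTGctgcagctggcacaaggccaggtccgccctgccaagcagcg

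The E-box stood at -60 to -55 in Cry1, at -166 to -161 in Per1 and at -127 to -122 in Tef, and 7.15% of 32851 promoters hold it. The E-box-like letters stood at -79 to -74 in Cry1, at -166 to -161 in Cry2 and at -28 to -23 in Nr1d1, against 4.68% of promoters. E-box letters were thus present in genes that rose (Cry1), fell (Per1, Cry2) and were not called (Tef, Nr1d1). Neither form was found for Nr1d2, which fell, or for Dbp, Per3 and Arntl, which were not called. The D-box TTATGTAA, searched on both strands like the others, occurred only in Per3, at -205 to -198 and -158 to -151 (0.938% of promoters). The ROR element core TAGGTCA occurred only in an Arntl entry, at 31 to 37 (2.61% of promoters). The letters TTACGTAA (0.119% of promoters), TGACGTCA (1.79%) and GGGTCA (13.7%) were in none of the 12 windows, and the short TGACG (20.8%) was in Per1, Cry1 and Cry2.

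Nr1d2, the repressor REV-ERB beta, fell in step after both meals. Fasting read 6.11 and 6.38, LF30min 6.19 and 6.47, LF1h 5.72 and 5.89, and LF3h 5.48 and 5.52. HF30min read 6.02 and 6.24, HF1h 5.68 and 5.95, and HF3h 5.60 and 5.31. Arrays at 1 h and at 3 h all lay below both fasting arrays. The log2 difference was -0.75 ± 0.14 (SE), or 1.68-fold lower, at LF3h (adjusted p = 0.0072), and -0.79, or 1.73-fold lower, at HF3h (95% interval -1.09 to -0.49, adjusted p = 0.0039). At 1 h it was -0.44 after LF (adjusted p = 0.2) and -0.43 after HF (adjusted p = 0.22). From the 30 min pools, Nr1d2 fell by 0.83 (LF, adjusted p = 0.0048) and 0.67 (HF, adjusted p = 0.0098), the HF call being lost without array 2 of HF30min or of HF3h (down to -0.53, adjusted p up to 0.11). The LF3h call was lost without array 2 of Fasting or either array of LF3h (adjusted p up to 0.083), and the HF3h call without array 2 of Fasting or of HF3h (up to 0.061). A second probe set, 1416959_at, was dim at 3.34 to 3.89 and was not called in the moderated F test (adjusted p = 0.95). The mean of both probe sets differed from Fasting by -0.47 in the LF3h pool (adjusted p = 0.024) and by -0.44 in the HF3h pool (adjusted p = 0.031).

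Nr1d1, the companion REV-ERB alpha, was dim at 4.56 to 4.92, with a log2 difference of -0.1 at LF3h and -0.2 at HF3h. Dbp, a transcription factor of the PAR bZIP family with strong daily rhythms in many tissues, was also dim at 4.68 to 5.19, with -0.05 and -0.23. Tef, its relative, was brighter on its brightest probe set, 1424175_at, at 7.38 to 7.88, with -0.19 and -0.26. None of these 6 differences was called. Other probe sets did not all share these signs, and none was called either. Tef probe set 1450184_s_at differed by 0.12 at LF3h and 0.23 at HF3h, and 1438033_at by -0.26 and -0.1. Dbp probe set 1418174_at differed by 0.11 and -0.06. The array data hold no detection calls, so a dim probe set cannot be told from one with no signal here.

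**Figure D3:**
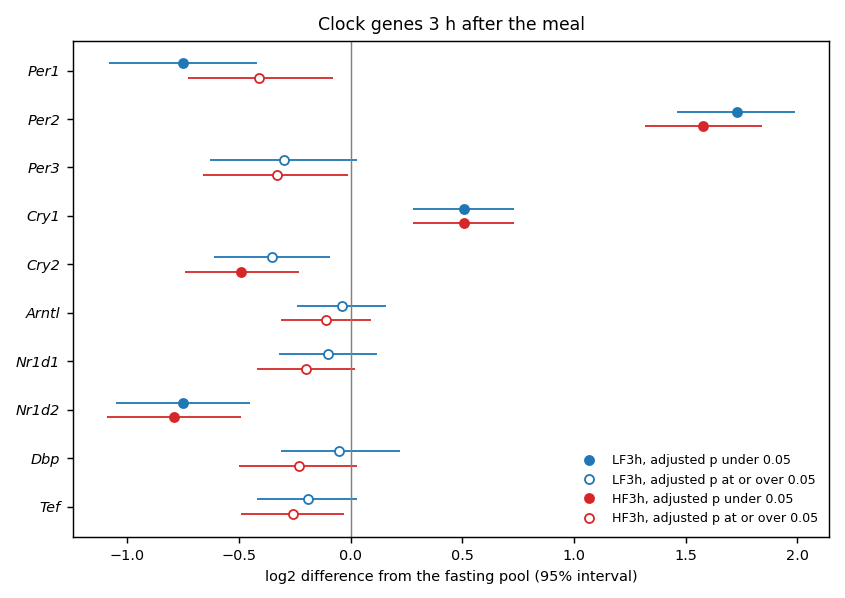
Log2 difference from the fasting pool (horizontal axis) at 3 h for the 10 clock genes, with 95% intervals, LF in blue and HF in red, and filled points at an adjusted p under 0.05. Per2 stands at 1.73 and 1.58 and Cry1 at 0.51 for both meals, while Nr1d2 stands at -0.75 and -0.79.

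Across all 7 pools, 4 of the 10 genes differed in the moderated F test, where 9.76% of all genes did: Per2 (adjusted p = 8.9e-07), Nr1d2 (0.0036), Cry1 (0.01) and Per1 (0.015). Cry2 followed at 0.085. Ranges of the pool means were 0.88 for Per1 and 0.87 for Nr1d2, which 1.65% and 1.69% of genes reached, 0.51 for Cry1 (9.99%) and 0.49 for Cry2 (11.7%). The remaining 5 genes had ranges of 0.25 to 0.42. On the brightest probe set, no clock gene was called at LF30min (0.401% of all genes called), HF30min (1.12%) or HF1h (1.01%) in limma. With shares this low, the lack of a call among 10 genes says little about them. There, 0, 1 and 2 genes had an unadjusted p under 0.05. The dimmer Per2 probe set 1457350_at was called at HF1h (0.67, adjusted p = 0.016 in limma). From 30 min to 3 h, 4 of 10 genes were called within each meal (2 higher and 2 lower), against 4.31% of all genes after LF (1.99% higher, 2.32% lower) and 8.95% after HF (3.08% higher, 5.87% lower). The number of called genes at 3 h rests on single arrays. It was 1 at LF3h without array 2 of Fasting or array 2 of LF3h, 2 without array 1 of LF3h, and 1 at HF3h without array 2 of Fasting or array 2 of HF3h. From 30 min to 3 h it was 2 after LF without array 2 of LF3h, and 1 after HF without array 2 of HF3h. The gene left in each case of 1 was Per2.

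The meals themselves were compared at matched times. None of the 10 genes was called in HF against LF in limma at 30 min (0.55% of all genes called), 1 h (0.225%) or 3 h (2.2%), and 1 gene at each time had an unadjusted p under 0.05. At 3 h the HF minus LF difference was -0.15 (95% interval -0.41 to 0.12) for Per2, 0 (-0.23 to 0.23) for Cry1, -0.04 (-0.34 to 0.26) for Nr1d2 and -0.14 (-0.39 to 0.12) for Cry2. These intervals bound a difference between meals and do not show that the meals acted alike. Per1 had the largest difference, at 0.34 (0.02 to 0.67, adjusted p = 0.3). At 1 h, Per2 stood at -0.23 (-0.49 to 0.04, adjusted p = 0.54) and Per3 at -0.35 (-0.68 to -0.02, adjusted p = 0.44). At 30 min, Tef stood at -0.33 (-0.56 to -0.10, adjusted p = 0.29). Tef probe sets 1450184_s_at and 1438033_at went the other way there, by 0.31 (adjusted p = 0.32) and 0.28 (adjusted p = 0.47). The further, dim probe sets of Per3 lay between -0.14 and 0.27 at 1 h. Against Fasting, the means of stomach, acinar and islet markers were lower at LF3h and higher at HF3h, whereas Per2 and Cry1 were higher and Nr1d2 lower in both pools. From 30 min to 3 h, the stomach markers fell after both meals, as Nr1d2 did. The part of these cells in the clock gene values was not tested.

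**Figure D4:**
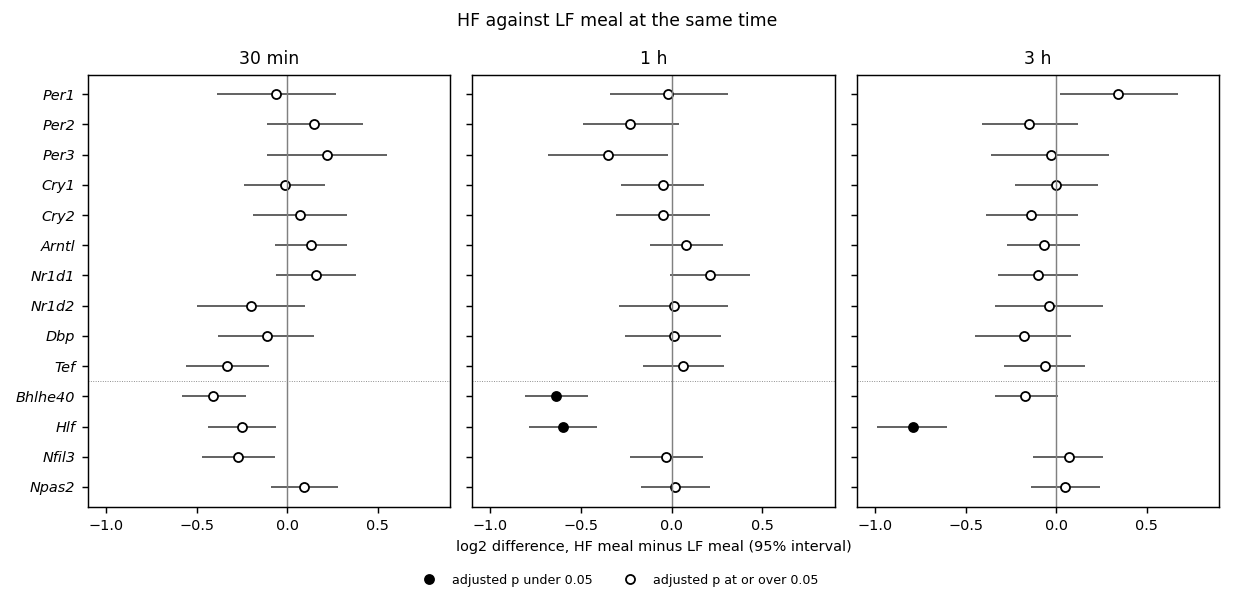
Log2 difference, HF minus LF pool (horizontal axis), with 95% intervals at 30 min, 1 h and 3 h for the 10 clock genes and, under the dotted line, 4 partner genes. No clock gene has a filled point (adjusted p under 0.05), while Bhlhe40 at 1 h and Hlf at 1 h and 3 h do.

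Partners of the clock were read from a list of 25 genes, of which 23 had a probe set of their own. Against Fasting, the number higher and lower was 1 and 0 at LF30min, 1 and 0 at LF1h, 2 and 2 at LF3h, 0 and 1 at HF30min, 1 and 1 at HF1h, and 1 and 2 at HF3h. The share of all genes called, in the same order, was 0.401%, 1.54%, 5.41%, 1.12%, 1.01% and 6.67%. The median log2 difference of the 23 lay between -0.04 and 0.03. Clock, the partner of ARNTL, differed by 0.22 at LF3h (adjusted p = 0.31) and by 0.1 at HF3h (adjusted p = 0.72). Npas2, which can replace it, read 8.04 and 8.03 in Fasting, 7.55 and 7.62 at LF3h, and 7.66 and 7.61 at HF3h, and fell by 0.45 (adjusted p = 0.0089) and fell by 0.4 (adjusted p = 0.015). Nfil3, a repressor at D-boxes, fell by 0.49 (adjusted p = 0.0077) and 0.42 (adjusted p = 0.015). Each of these calls was lost on leaving out at least 2 of the arrays compared in turn, with an adjusted p of up to 0.1 for Npas2 and 0.14 for Nfil3.

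Bhlhe40 (DEC1), an E-box repressor, rose after both meals and differed between them at 1 h. It read 9.56 and 9.61 in Fasting, 10.04 and 10.04 at LF30min, 10.72 and 10.65 at LF1h, and 10.62 and 10.71 at LF3h. After HF it read 9.66 and 9.61, 10.09 and 10.01, and 10.53 and 10.46. The LF pools were above Fasting from 30 min on, the HF pools from 1 h. The rise was 0.46 at LF30min (adjusted p = 0.023), 1.1 at LF1h (adjusted p = 3.2e-06) and 1.08 at LF3h (adjusted p = 5.5e-06), and 0.47 at HF1h (adjusted p = 0.013) and 0.91 at HF3h (adjusted p = 1.3e-05). HF minus LF was -0.41 at 30 min (adjusted p = 0.051) and -0.64 at 1 h (adjusted p = 0.005). The calls at LF30min and HF1h were each lost on leaving out any 1 of the 4 arrays compared (adjusted p up to 0.26 and 0.15), and those at LF1h, LF3h and HF3h were not lost without any array. The 1 h difference between meals was lost without array 1 of LF1h or array 2 of HF1h (adjusted p up to 0.074).

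Hlf, the PAR bZIP relative of Dbp and Tef, was the clock partner with opposite calls after the LF and HF meals, at different times. It read 7.73 and 7.84 in Fasting, 8.25 and 8.27 at LF3h, 7.20 and 7.06 at HF1h, and 7.40 and 7.54 at HF3h. LF3h lay above Fasting and the HF pools below it. LF30min, at 7.62 and 7.55, also lay below Fasting and was not called (-0.2, adjusted p = 0.62 in limma). It rose by 0.47 at LF3h (adjusted p = 0.0075), fell by 0.45 at HF30min (adjusted p = 0.03) and by 0.65 at HF1h (adjusted p = 0.002), and differed by -0.32 at HF3h (adjusted p = 0.057). HF minus LF was -0.6 at 1 h (adjusted p = 0.014) and -0.79 at 3 h (adjusted p = 0.00024), and the latter was kept without any single array. The call at LF3h was lost without array 1 of Fasting or array 2 of LF3h (adjusted p up to 0.096), that at HF30min without any 1 of the 4 arrays compared (up to 0.22), and the 1 h difference between meals without 3 of its arrays in turn (up to 0.16).

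**Figure D5:**
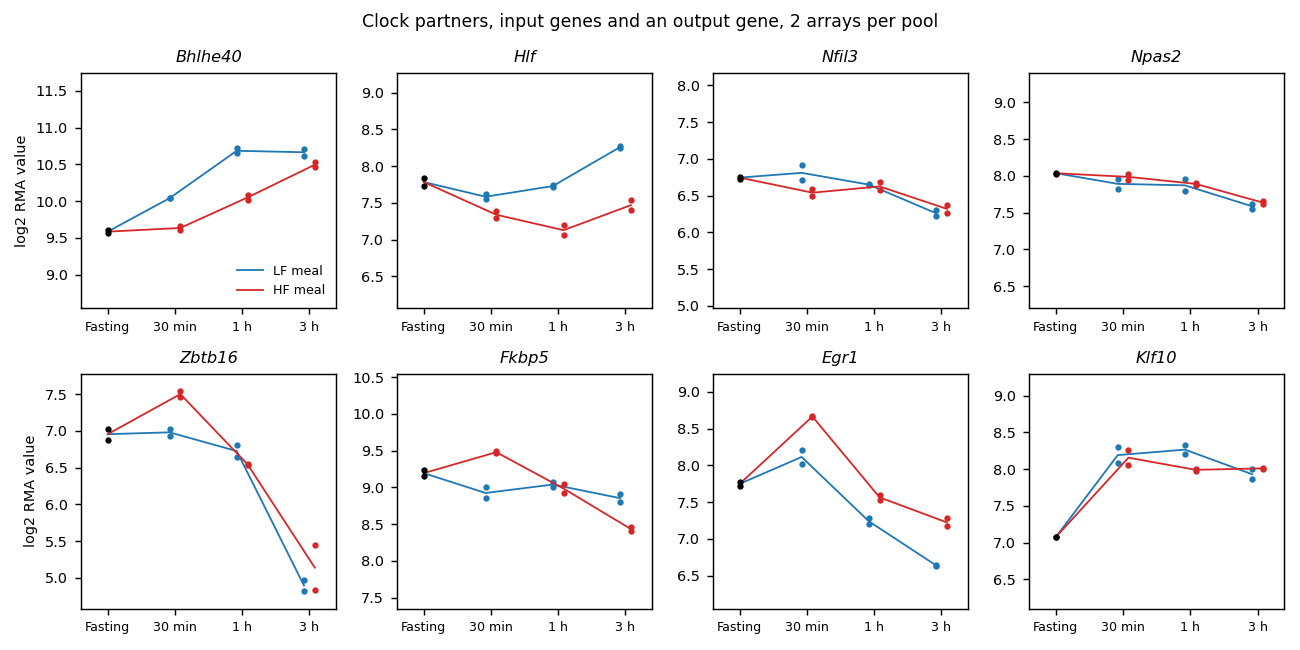
Log2 RMA value (vertical axis, the same span in every panel) in the 7 pools (horizontal axis, not to scale). Points are arrays, and lines run through pool means. Shown are 4 clock partners, 3 genes that respond to glucocorticoid or CREB signals (input genes in the title) and the output gene Klf10. Bhlhe40 climbs sooner after LF (blue) than after HF (red), the meals part for Hlf, and Zbtb16 lies at 4.82 to 5.45 in the 3 h pools against 6.88 and 7.03 in Fasting.

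Of 15 genes that respond to glucocorticoid or CREB signals, which feed into the Per genes, 7 fell at LF3h with 0 higher, and 7 fell at HF3h with 2 higher. Of all genes, 2.28% were lower and 3.13% higher at LF3h, and 3.7% lower and 2.97% higher at HF3h. Their median difference was -0.24 at LF3h and -0.15 at HF3h. This list, like the other lists, was chosen with earlier results of these data known, so its counts do not test it as a set. Zbtb16, a glucocorticoid-induced transcription factor, fell by 2.06 at LF3h (adjusted p = 4.3e-06) and fell by 1.82 at HF3h (adjusted p = 6.8e-06). Fkbp5, a co-chaperone of the glucocorticoid receptor, fell by 0.34 (adjusted p = 0.043) and 0.76 (adjusted p = 0.00015), and the LF3h call was lost on leaving out any 1 of 10 arrays. Egr1, an immediate early transcription factor, fell by 1.11 (adjusted p = 9.3e-06) and 0.52 (adjusted p = 0.0028) after having been 0.92 higher at HF30min (adjusted p = 6.9e-05). Atf3, a stress-induced factor, was 1.16 higher at LF1h (adjusted p = 2.4e-06) and 0.8 at HF1h (adjusted p = 0.00019). Per1 fell in the LF3h pool, where Zbtb16, Egr1 and Fkbp5 also fell. Zbtb16, Egr1 and Fkbp5 fell at HF3h too, where Per1 was not called (-0.41, adjusted p = 0.17 in limma). Atf3 was called higher at HF3h. Whether the changes are linked was not tested.

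Of 14 clock output genes measured from a list of 16, 2 were higher and 1 lower at LF3h, and the same numbers at HF3h, where 5.41% and 6.67% of all genes were called in either direction. Klf10, a zinc finger repressor, rose in all 6 fed pools, by 0.85 to 1.19. Gpcpd1, a glycerophosphocholine phosphodiesterase, fell by 0.58 in the LF3h pool (adjusted p = 0.0012) and by 0.57 in the HF3h pool (adjusted p = 0.00085). Of 11 rhythmic gut genes measured from a list of 12, 1 was higher and 3 lower at each 3 h pool, against 3.13% higher and 2.28% lower of all genes at LF3h and 2.97% and 3.7% at HF3h. Slc2a5, the fructose transporter GLUT5, rose by 1.57 (adjusted p = 8.2e-08) and 1.01 (adjusted p = 3.5e-06), while Abcg8, part of a sterol exporter, fell by 0.92 (adjusted p = 2.9e-05) and 1.03 (adjusted p = 5.2e-06). The other 2 were Abcb1a, a drug exporter, lower by 0.5 and 0.33, and Abcg5, the partner of ABCG8, lower by 0.42 and 0.31. The Abcg5 calls and the HF3h call of Abcb1a were lost on leaving out 3 or 4 of the arrays compared in turn.

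Genes with a course like that of Per2 were sought among 207 other genes with a range of pool means of at least 1, by the root mean square difference of the 7 centred pool means on the log2 scale. The closest were Dipk2a (0.19), Ccne2 (0.25) and Slc11a2 (0.28). For Arntl, sought among 208 genes, the closest were Fkbp5 (0.25), Sowaha (0.26) and Acpp (0.27). The Arntl means ranged over only 0.25, so a limit of at least 1 on the range keeps every one of these genes at a distance from it by construction.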

How the data were processed

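The deposited log2 values were made by the authors with Robust Multiarray Analysis (RMA, also named in the submitters' processing notes), which subtracts background and normalizes probe set intensities; base 2 follows from RMA. RMA shrinks the differences of dim probe sets, and the data hold no detection calls. The table holds 45101 probe sets, 64 of them Affymetrix controls that were left out. The platform annotation names 1 gene for 34945 probe sets (34741 matched to a current gene by Entrez ID), several for 932 and none for 9160. Each gene was represented by its brightest probe set (mean of 14 arrays).

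All 45037 remaining probe sets were fitted in limma 3.58.1 under R 4.3.3, each pool having its own mean, with 7 residual and 6.404 prior degrees of freedom. The p-values of each of 11 comparisons were adjusted by Benjamini-Hochberg over all probe sets, and a gene was called at an adjusted p under 0.05. The median SE of a difference was 0.11. The procedure was tested on simulated data. Promoters came from RefSeq (GRCm38.p6), and plots were made in matplotlib 3.10.9 (Python 3.11.15).

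All 10 members are named, and of each further list the 4 genes with the largest change among those called against Fasting. The members and lists were chosen with earlier results of these data known. The alternatives were a p threshold of 0.01, a 2-fold minimum, a filter at a log2 mean of 6, trended or robust variances, median centring, averaging over the probe sets of a gene, fewer probe sets, only the 2 pools compared, the replicate number as a block, and each array left out in turn.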

Additional observations from a re-analysis of the deposited data

Results flagged for a closer look

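Differences between the HF and LF pool at the same time were tested in limma and adjusted over all probe sets. They were called for 7 of the genes named around the clock and for none of the 10 clock genes. The named genes were picked for the largest called changes against Fasting, 4 from each further list, whereas all 10 clock genes were counted. The counts are therefore not comparable. Of all genes, 0.55% were called at 30 min, 0.225% at 1 h and 2.2% at 3 h. Bhlhe40 differed by -0.64 at 1 h (adjusted p = 0.005), HF minus LF. Hlf differed by -0.6 at 1 h (adjusted p = 0.014) and by -0.79 at 3 h (adjusted p = 0.00024). Tfrc, the transferrin receptor, differed by -0.38 at 3 h (adjusted p = 0.043), a call lost on leaving out any 1 of 10 arrays, and Noct (nocturnin), whose transcript is rhythmic in many tissues, by 0.45 at 3 h (adjusted p = 0.028). Slc2a5 was lower after HF at every time, with differences of -0.59 at 30 min (adjusted p = 0.0026), -0.79 at 1 h (adjusted p = 5e-04) and -0.56 at 3 h (adjusted p = 0.0019). Egr1 was higher after HF by 0.55 at 30 min (adjusted p = 0.012) and 0.58 at 3 h (adjusted p = 0.0035). Fkbp5 was 0.56 higher at 30 min (adjusted p = 0.012) and differed by -0.42 at 3 h (adjusted p = 0.031). On leaving out single arrays, calls were also lost for Fkbp5 at 30 min (3 arrays, adjusted p up to 0.16) and 3 h (4 arrays, up to 0.28), Noct at 3 h (4 arrays, up to 0.17), Egr1 at 30 min (3 arrays, up to 0.17) and 3 h (1 array, 0.059), Hlf at 1 h (3 arrays, up to 0.16), Bhlhe40 at 1 h (2 arrays, up to 0.074) and Slc2a5 at 30 min (1 array, 0.054). The marker means of stomach, acinar and islet cells also differed between these pools, and their part in the differences was not tested.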

How the results depend on the processing

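The number of clock genes called was 1 at LF1h, 4 at LF3h, 0 at HF1h, 4 at HF3h, 4 from 30 min to 3 h within each meal, and 4 in the F test. At an adjusted p under 0.01 it was 0 at LF1h, 2 at LF3h, 2 at HF3h, 2 from HF30min to HF3h and 2 in the F test. With a 2-fold minimum it was 0 at LF1h and 1 at LF3h, at HF3h, from 30 min to 3 h within either meal, and in the F test. With probe sets averaged within a gene it was 1 at HF1h (Per2, 0.39). With only the 2 pools compared in the fit it was 0 at LF1h, 3 at LF3h, 3 at HF3h and 2 from LF30min to LF3h, and 11 of 17 calls of clock genes were kept. With 1 array left out it ranged from 0 to 1 at LF1h, 1 to 4 at LF3h, 1 to 4 at HF3h, 2 to 4 from LF30min to LF3h, and 1 to 5 from HF30min to HF3h; the F test gave 4 throughout, and the comparisons with a count of 0 stayed at 0. None of the 17 calls of clock genes or 78 calls of other named genes changed direction under these settings; differences that were not called were not followed here, and the 2 Arntl probe sets, for example, differ in sign at HF1h (0.14 and -0.27). Of the 17 calls of clock genes, 17 were kept with a trended variance, a robust variance or median centring. It was 16 with probe sets averaged within a gene, and 205 of 238 when 1 array was left out. The filter at a log2 mean of 6 removed Nr1d2 (mean 5.9), whose calls were thus not tested there, and 13 of 13 testable calls were kept. Dropping probe sets marked s, x or a in their names removed Cry1, measured by 1433733_a_at alone, and 13 of 13 testable calls were kept. With the replicate block the count stayed at 4 for LF3h and 4 for HF3h, and 17 of 17 calls were kept. Same-numbered arrays of different pools did not deviate together (correlations of -0.187 to 0.151 over 21 pairs of pools, median -0.001), so the number does not pair them. Dim probe sets (Nr1d1, Dbp, Per3) and 2 arrays per pool limit what could be detected, and mice were not replicated.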
